A study of Mus musculus with 8 samples.

Results

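Genes of fatty acid uptake and transport were examined in lung endothelium: Cd36, Slc27a4, Slc27a3, Slc27a1, Fabp4, Fabp5, Fabp3, Acsl1, Tcf15 and Meox2. They were chosen by symbol, and all 10 were found once each among the 31610 genes of the count table. Fatty acids leave the blood through the endothelial cells that line vessels, and a small set of genes handles their uptake and passage. CD36 is a surface receptor that binds long-chain fatty acids and promotes their uptake. The fatty acid transport proteins (FATPs, encoded by the Slc27a genes) and acyl-CoA synthetases such as ACSL1 join fatty acids to coenzyme A, which traps them in the cell. Fatty acid binding proteins (FABPs) carry them through the cytosol, and in mouse heart endothelium the transcription factors MEOX2 and TCF15 act as a pair that promotes the expression of such uptake genes.

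RNA was sequenced from lung endothelial cells of C57BL/6J mice, isolated by flow cytometry. An adeno-associated virus (AAV, a gene delivery vector) labelled nANGPTL4 had been given to the mice of 4 libraries, and a control AAV to those of the other 4. ANGPTL4 is a secreted protein that inhibits lipoprotein lipase, which frees fatty acids from triglycerides in capillaries, and the prefix n commonly denotes its N-terminal fragment, although the labels do not spell it out. Titles in the nANGPTL4 AAV group say NT Treated, an unexplained term, and the group is taken from the treatment label. The replicates are described as independent and biological. The age and sex of the mice, the dose and promoter of the vector, the time after delivery and the markers used for sorting are not given in the sources used here.

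Total counts were 83183122 to 114337333 per library, and replicates of a group differed by more than counting error in all 12 pairs. The cells carried endothelial transcripts at similar levels in both groups: the summed level of 8 pan-endothelial markers was 13800 to 14500 CPM, the count scaled to library size, in nANGPTL4 AAV and 14200 to 15100 CPM in control AAV. Angptl4, the mouse gene of the delivered protein, was at 5.04 ± 1.23 CPM in nANGPTL4 AAV and 3.26 ± 0.466 CPM in control AAV (SD, n = 4 each). It was not called (adjusted p = 0.110 by edgeR's quasi-likelihood test, Benjamini-Hochberg adjusted), and DESeq2 gave an adjusted p of 0.00901. The groups did not overlap, with only 0.0104 CPM between the closest libraries, where 3.89% of tested genes were fully higher. Whether transcripts of the vector count toward mouse Angptl4 was not tested. Library sizes behind CPM were scaled by TMM, and every mean ± SD is over 4 libraries of a group. A positive log2 fold change means higher in nANGPTL4 AAV.

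Of the 10 genes, 0 passed an adjusted p of 0.05 in the edgeR test, against 0.138% of the 18874 genes tested (0.0901% called lower). At an unadjusted p under 0.05 there were 3 of 10 (Slc27a4, Cd36 and Fabp4, all lower in nANGPTL4 AAV), against 17.6% of all genes (10.3% lower). DESeq2 called 1 of the 10, Slc27a4, lower, where it called 6.14% of its 15580 genes with an adjusted p, and 4.16% as lower. DESeq2 gave Fabp3 no adjusted p. All 10 passed the filter on low counts. Their log2 fold changes were negative in 8 of 10, with a median of -0.14, beside a median of 0.01 over all tested genes and -0.03 over the 9256 genes whose mean log2 CPM exceeded 3. Values were negative in 9014 of all 18874 tested genes and in 5787 of those 9256. The median of the 10 was -0.08 without nANGPTL4 AAV library 3 and -0.09 without control AAV library 4. After TMM scaling the groups did not overlap in 2 of the 10, Cd36 and Slc27a4, both lower in nANGPTL4 AAV. That pattern was held by 6.99% of tested genes, and 0 of the 10 were fully higher, against 3.89%. Among the 9256 genes above, which include Cd36 and Slc27a4, 1168 were fully lower and 205 fully higher. With plain library sizes the groups overlap in both Cd36 and Slc27a4. TMM factors were 1.008 to 1.023 in nANGPTL4 AAV and 0.969 to 0.9942 in control AAV.

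**Figure D1:**
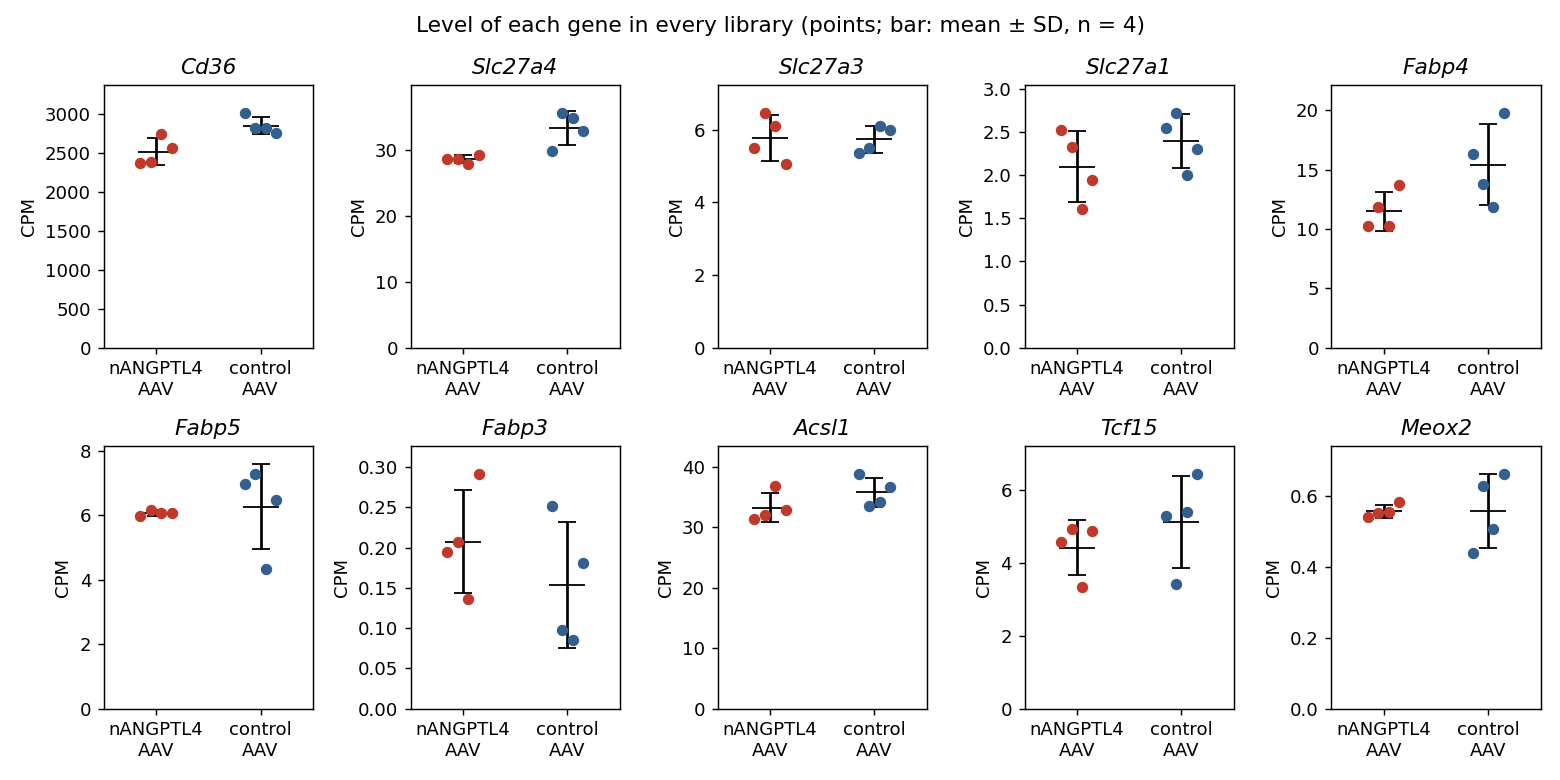
CPM of each of the 10 genes in every library, with nANGPTL4 AAV on the left and control AAV on the right of each panel. Points are libraries and bars are the mean ± SD of 4. On this TMM-scaled CPM the groups stand apart in Cd36 and Slc27a4, by a narrow gap in both, and overlap in the other 8 genes.

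The levels of the genes differed far more among themselves than between the groups. To compare genes, CPM was divided by the length in kb of the principal transcript in the GENCODE M21 annotation. On this scale Cd36 was at 741 ± 51.1 CPM per kb in nANGPTL4 AAV and 841 ± 32.9 CPM per kb in control AAV, which ranked 48 and 42 among 18819 genes. Fabp4 came next among the 10, with 12.8 ± 1.82 CPM per kb in nANGPTL4 AAV and 17.2 ± 3.83 CPM per kb in control AAV, so that Cd36 was 58.6 times as high as Fabp4 in nANGPTL4 AAV (49.5 to 70.4 across libraries) and 50.7 times in control AAV (36.8 to 63.1). A middle tier held Acsl1 at 8.55 and 9.19 CPM per kb in nANGPTL4 AAV and control AAV, Slc27a4 at 7.05 and 8.20, Fabp5 at 6.15 and 6.35 and Tcf15 at 4.52 and 5.25. Neighbours in this tier had overlapping library ranges in control AAV, so their order there is not resolved, while in nANGPTL4 AAV these ranges were separate.

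Slc27a3 followed with 2.55 CPM per kb in nANGPTL4 AAV and 2.54 CPM per kb in control AAV, and Slc27a1 with 0.751 and 0.855. Meox2 and Fabp3 were the lowest, with Meox2 at 0.237 CPM per kb in both groups and Fabp3 at 0.252 CPM per kb in nANGPTL4 AAV and 0.187 in control AAV, and their ranges overlapped in both groups. The middle of the order depends on the length used, since several of these genes have long alternative transcripts. With the length of all annotated exons Fabp4 was at 2.56 and 3.43 CPM per kb in nANGPTL4 AAV and control AAV and Slc27a4 at 6.48 and 7.54, while Cd36 stayed highest at 702 and 796.

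**Figure D2:**
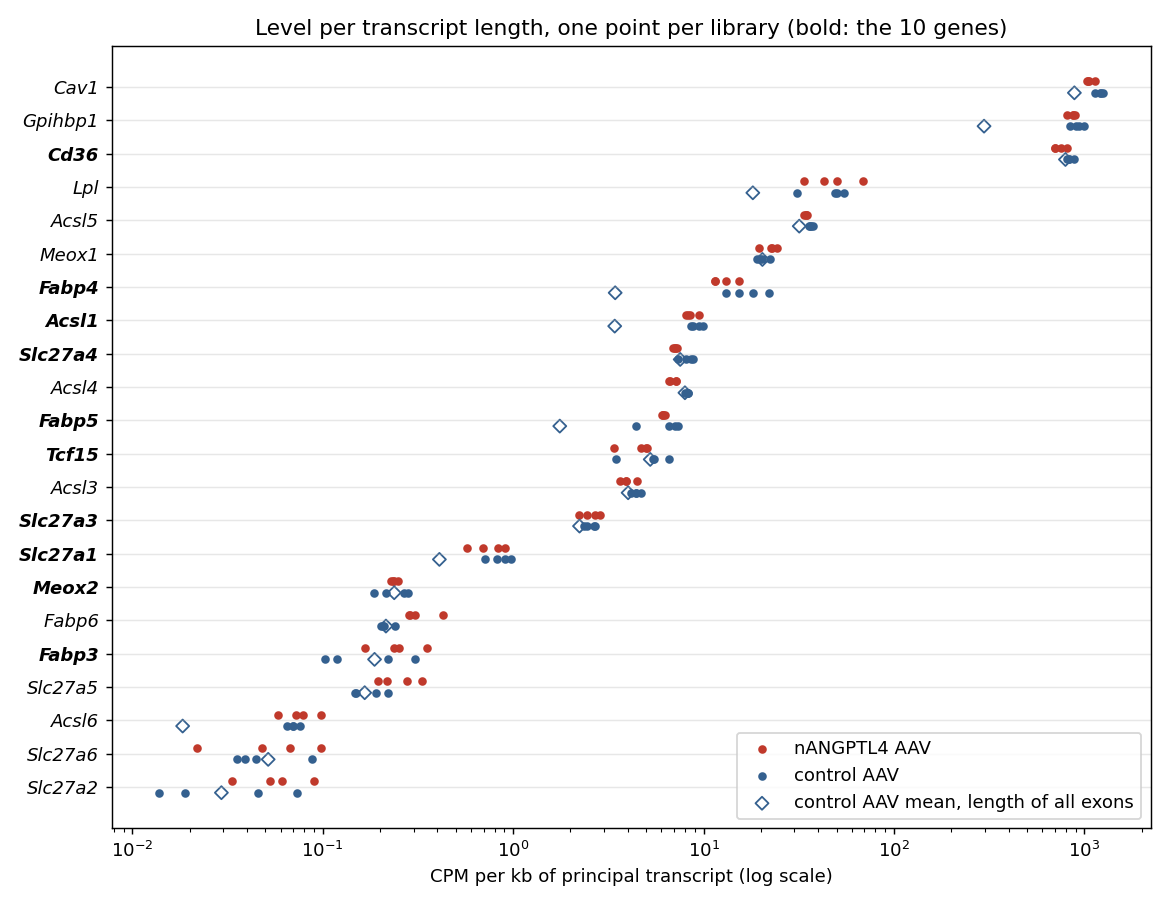
Level of the 10 genes (bold) and of related genes, in CPM per kb of the principal transcript on a log scale, with 1 point per library and nANGPTL4 AAV above control AAV in each row. Open diamonds give the control AAV mean with the length of all exons. Cd36 lies far to the right of the other 9 genes, while Meox2 and Fabp3 lie at the low end.

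Cd36 was slightly lower in nANGPTL4 AAV. It had 2378, 2387, 2744 and 2568 CPM in nANGPTL4 AAV libraries 1 to 4, against 3017, 2824, 2829 and 2758 CPM in control AAV libraries 1 to 4. The groups did not overlap, but nANGPTL4 AAV library 3 and control AAV library 4 were only 13.7 CPM apart, 0.498% of the lowest control AAV value. These libraries change order with plain library sizes, holding 301174 of 108921765 and 274160 of 100607473 counts, respectively. The log2 fold change was -0.18 (SE 0.06, adjusted p = 0.145, edgeR), a change of -11.8% with a 95% interval of -19.2% to -3.74% before any adjustment for the number of genes. It was negative in each of 17 alternative fits, between -0.21 and -0.14, and passed in 0 of them. Its annotated span in mm10 is chromosome 5, 17781690 to 17888801, minus strand, and none of its stretches of 31 bases recurs in another annotated gene.

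Slc27a4 encodes FATP4, and it was the most abundant of the FATP genes described here. Its level was 28.6, 28.6, 27.9 and 29.2 CPM in nANGPTL4 AAV libraries 1 to 4, against 29.8, 35.6, 34.8 and 32.8 CPM in control AAV libraries 1 to 4. The nANGPTL4 AAV libraries were tightly grouped, with a coefficient of variation (CV) of 1.96%, near the 1.86% that counting error alone gives, while the control AAV libraries spread by 7.74%. The groups did not overlap, though control AAV library 1 was only 0.56 CPM above the highest nANGPTL4 AAV library. With plain library sizes control AAV library 1, at 2716 of 94056725 counts, falls below nANGPTL4 AAV library 4, at 3007 of 100693992. The Slc27a4 log2 fold change, -0.22 (SE 0.06), missed the threshold in edgeR (adjusted p = 0.110) and passed it in DESeq2 (adjusted p = 0.0322). Over the 17 alternatives it stayed between -0.26 and -0.17. The 95% interval ran from -21.4% to -5.96%. Slc27a4 spans chromosome 2, 29802634 to 29817522, plus strand.

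The other FATP genes were scarcer. Slc27a3, which encodes FATP3, had 5.49, 6.45, 6.09 and 5.04 CPM in nANGPTL4 AAV libraries 1 to 4 and 5.35, 5.49, 6.11 and 5.98 CPM in control AAV libraries 1 to 4. The groups overlapped throughout, with a log2 fold change of 0.01 (standard error 0.10, adjusted p = 0.970, edgeR) whose sign turned in 4 of 17 alternatives and a 95% interval of -13.2% to 16.8%. Slc27a1, which encodes FATP1, had 2.52, 2.32, 1.60 and 1.95 CPM in nANGPTL4 AAV libraries 1 to 4 and 2.55, 2.72, 2.0 and 2.30 CPM in control AAV libraries 1 to 4. These groups overlapped too, with a log2 fold change of -0.19 (standard error 0.16, adjusted p = 0.574, edgeR) and a wider interval of -31.4% to 11.7%. It was -0.07 without nANGPTL4 AAV library 3 and -0.11 without control AAV library 2. By level per transcript length, Slc27a4 made up 68.1% ± 2.25 of the summed level of these FATP genes in nANGPTL4 AAV and 70.7% ± 1.33 in control AAV, Slc27a3 24.6% ± 2.31 and 21.9% ± 1.31, and Slc27a1 7.23% ± 1.28 and 7.41% ± 1.14 (SD, n = 4 each). With the length of all exons the share of Slc27a1 was 3.95% in nANGPTL4 AAV and 4.04% in control AAV. Slc27a3 spans chromosome 3, 90385239 to 90389938, minus strand, and Slc27a1 spans chromosome 8, 71568882 to 71587302, plus strand.

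Promoter sequences are shown for Cd36 and Slc27a4, the genes whose groups did not overlap after TMM scaling. They were searched because TCF15 belongs to the basic helix-loop-helix factors, which bind E-box motifs. The windows run from 250 bases before the start site to 50 after it, from RefSeq on GRCm38.p6, the build also called mm10, and are given 5′ to 3′ on the gene's strand. The Cd36 window lies inside the annotated span of the gene, at a start other than its outermost one. Capitals mark E-boxes, searched as CANNTG, which reads the same on both strands.
Cd36 chr5:17835847-17836146, minus strand: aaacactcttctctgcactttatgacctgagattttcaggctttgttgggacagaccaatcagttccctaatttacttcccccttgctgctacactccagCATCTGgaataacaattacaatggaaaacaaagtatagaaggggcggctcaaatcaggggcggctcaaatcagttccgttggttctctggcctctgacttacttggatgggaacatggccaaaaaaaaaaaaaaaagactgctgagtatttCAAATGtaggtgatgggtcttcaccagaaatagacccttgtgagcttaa
Slc27a4 chr2:29802384-29802683, plus strand: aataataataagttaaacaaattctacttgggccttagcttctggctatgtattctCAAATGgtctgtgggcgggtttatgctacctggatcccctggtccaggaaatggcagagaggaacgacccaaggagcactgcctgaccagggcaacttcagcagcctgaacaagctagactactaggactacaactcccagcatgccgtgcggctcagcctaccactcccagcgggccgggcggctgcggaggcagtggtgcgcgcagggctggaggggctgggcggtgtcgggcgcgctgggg

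The Cd36 window held 2 E-boxes and the Slc27a4 window 1, and 72.3% of 32851 RefSeq promoter windows of this length hold at least 1, so the motif is common. A homeobox core, TAATTA, was in neither window and is in 5.29% of all windows. The consensus DR1 element bound by PPAR with RXR, searched on both strands, was in neither and is in 0.0396% of all windows. Its half-site, AGGTCA, was in the Cd36 window but not in the Slc27a4 window, and is in 16.3% of all windows. The promoter table held windows for 7 of the 10 genes.

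Among the FABP genes, Fabp4, whose protein is abundant in adipocytes, macrophages and capillary endothelium, was the highest. It had 10.2, 11.8, 10.3 and 13.7 CPM in nANGPTL4 AAV libraries 1 to 4, against 16.3, 13.8, 11.8 and 19.8 CPM in control AAV libraries 1 to 4. The groups met: control AAV library 3, the lowest of its group, was at the level of nANGPTL4 AAV library 2 and below nANGPTL4 AAV library 4. The log2 fold change of -0.42 (standard error 0.15) did not pass (adjusted p = 0.181, edgeR), with a 95% interval of -40.7% to -6.22%. It was -0.28 without control AAV library 4, which held the highest value, and -0.52 without control AAV library 3.

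Fabp5, the binding protein first described in skin, had 5.96, 6.17, 6.08 and 6.08 CPM in nANGPTL4 AAV libraries 1 to 4 and 6.97, 7.28, 4.34 and 6.48 CPM in control AAV libraries 1 to 4. The nANGPTL4 AAV values lay inside the control AAV range and were closer together, with a CV of 1.45% against 21.1%, the first being under the counting error of 4.03%. Its log2 fold change was -0.05 (SE 0.14, adjusted p = 0.891, edgeR), with a 95% interval of -21.8% to 19.6%. Over all annotated Fabp5 transcripts, 333 of 3592 stretches of 31 bases (9.27%) recur in other genes, mostly processed pseudogenes, so its counts are less certain. The principal transcript has only 987 bases, and the share within it was not computed and may be larger.

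Fabp3, the binding protein of heart and skeletal muscle, was close to the limit of detection. It had 18, 21, 15 and 30 counts in nANGPTL4 AAV libraries 1 to 4 and 23, 11, 7 and 18 counts in control AAV libraries 1 to 4. The groups overlapped, and the log2 fold change of 0.43 (standard error 0.38, adjusted p = 0.595, edgeR) had a 95% interval of -24.3% to 140%, so that neither a rise nor a fall was detectable at this depth. The value was 0.22 without nANGPTL4 AAV library 4, 0.26 without control AAV library 2 or 3 and 0.77 without control AAV library 1. Its counts are also uncertain because 50.1% of its 31-base stretches recur in other genes, 35.2% in its pseudogene Fabp3-ps1, and 9.84% of its exonic bases overlap Zcchc17 on the other strand. Of the summed FABP level per transcript length, Fabp4 held 66.5% ± 2.65 in nANGPTL4 AAV and 72.4% ± 4.06 in control AAV, Fabp5 32.2% ± 2.89 and 26.9% ± 4.10, and Fabp3 1.29% ± 0.285 and 0.765% ± 0.307 (SD, n = 4 each). With the length of all exons the share of Fabp4 was 56.6% in nANGPTL4 AAV and 63.8% in control AAV, and that of Fabp3 was 5.51% and 3.37%.

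Fabp5 and Fabp4 are neighbours on chromosome 3, spanning 10012548 to 10016607 (plus strand) and 10204088 to 10208576 (minus strand), 187.5 kb apart, and Fabp12 lies 35.6 kb beyond Fabp4. Fabp3 spans chromosome 4, 130308595 to 130315463, plus strand.

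Acsl1, an acyl-CoA synthetase of the endoplasmic reticulum and outer mitochondrial membrane, had 31.4, 32.1, 36.8 and 32.9 CPM in nANGPTL4 AAV libraries 1 to 4, against 38.9, 33.5, 34.1 and 36.7 CPM in control AAV libraries 1 to 4. Only nANGPTL4 AAV library 3 reached into the control AAV range. The log2 fold change, -0.10 (SE 0.07, adjusted p = 0.442 in edgeR), came with a 95% interval of -15.8% to 2.81%. Acsl1 was not the main synthetase of these cells by level: Acsl5 was 4.04 times as high per transcript length in nANGPTL4 AAV (3.64 to 4.18 across libraries) and 3.99 times in control AAV (3.66 to 4.35). The gap was wider with the length of all exons, where Acsl5 was at 29.98 CPM per kb and Acsl1 at 3.18 in nANGPTL4 AAV, and at 31.8 and 3.42 in control AAV. Acsl1 spans chromosome 8, 46471037 to 46536051, plus strand, and 9.91% of its exonic bases overlap Gm45244 on the other strand, which had 15 counts in all.

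The regulators were measured at low levels. Tcf15, a basic helix-loop-helix factor, had 4.59, 4.93, 3.33 and 4.87 CPM in nANGPTL4 AAV libraries 1 to 4 and 5.29, 3.42, 5.41 and 6.46 CPM in control AAV libraries 1 to 4. In each group 1 library stood low, the ranges overlapped, and the log2 fold change of -0.21 (standard error 0.19, adjusted p = 0.593, edgeR) had a 95% interval of -35.1% to 14.6%. It was -0.09 without nANGPTL4 AAV library 3, -0.08 without control AAV library 4 and -0.36 without control AAV library 2. Meox2, a homeobox factor, had only 50, 56, 61 and 60 counts in nANGPTL4 AAV libraries 1 to 4 and 40, 71, 42 and 66 counts in control AAV libraries 1 to 4. Its log2 fold change was -0.01 (SE 0.18, adjusted p = 0.985, edgeR), it was above 0 under upper quartile scaling or plain library sizes, and the interval of -24.2% to 30.3% leaves a change of that size undetectable at this depth.

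The paralogue Meox1 was far more abundant than Meox2. It was at 49.8 ± 4.37 CPM in nANGPTL4 AAV and 45.4 ± 3.13 CPM in control AAV, 94.5 times Meox2 per transcript length in nANGPTL4 AAV (85.9 to 104 across libraries) and 87.9 times in control AAV (74.4 to 109). The Meox1 log2 fold change was 0.13 (SE 0.07, edgeR adjusted p = 0.344). Tcf15 spans chromosome 2, 152143561 to 152149097, and Meox2 chromosome 12, 37108540 to 37179534, both plus strand.

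**Figure D3:**
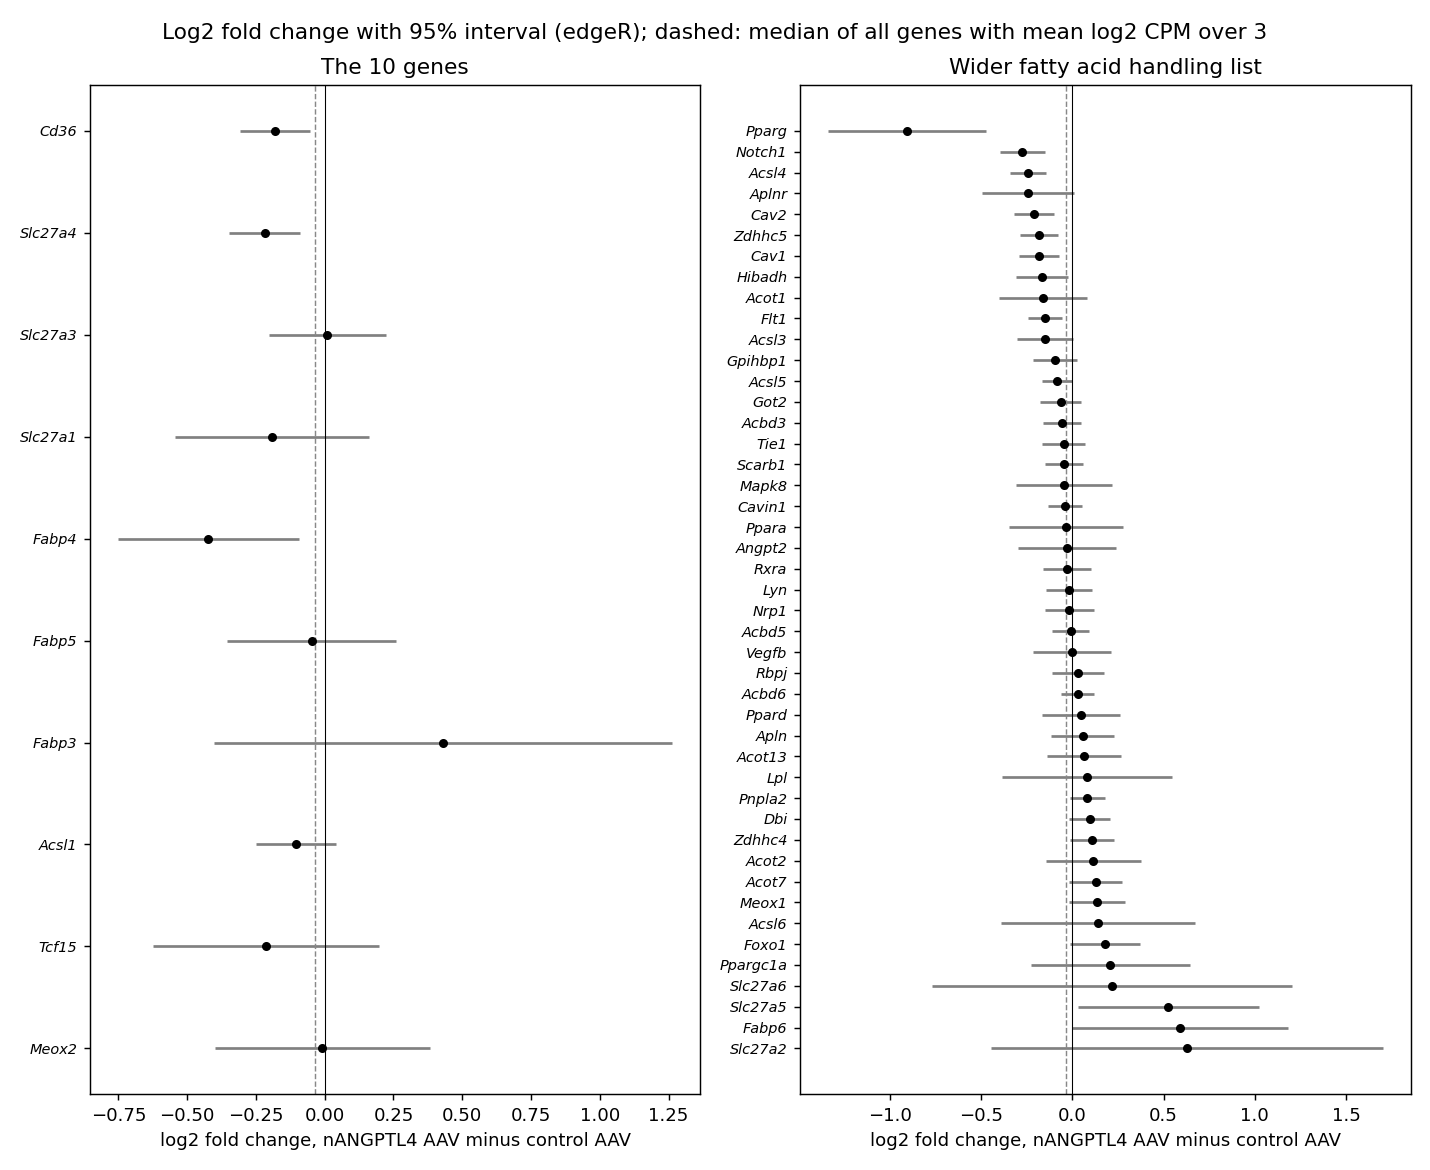
Log2 fold change, nANGPTL4 AAV minus control AAV, with its 95% interval from the edgeR fit, for the 10 genes on the left and the 45 tested genes of the wider list on the right. The dashed line is the median of genes whose mean log2 CPM exceeded 3, at -0.03. The intervals of Cd36, Slc27a4 and Fabp4 lie below 0, and 0 genes in either panel passed the adjustment over all genes.

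A wider list of 53 other genes that handle fatty acids or regulate their endothelial uptake was examined in the same fit, and 52 were matched and 45 passed the low-count filter. None of the 45 was called by edgeR, against 0.138% of all genes, while 10 had an unadjusted p under 0.05, against 17.6%. DESeq2 called 7, all lower, where it called 6.14% of all its genes with an adjusted p and 4.16% as lower. It gave no adjusted p to Fabp6, Slc27a2, Acsl6 and Slc27a6. Negative values were found for 26 of 45, against 9014 of the 18874 tested genes. Their median was -0.02, beside 0.01 over all tested genes. The median was 0.02 with library size only or upper quartile scaling.

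Within the acyl-CoA synthetases, Acsl4, which prefers arachidonic acid, was at 36.4 ± 1.70 CPM in nANGPTL4 AAV and 43.2 ± 0.740 CPM in control AAV. Its groups did not overlap, the log2 fold change being -0.24 (SE 0.05, adjusted p = 0.0642, edgeR, and 0.000731 in DESeq2). Acsl5 was at 146 ± 2.38 CPM in nANGPTL4 AAV and 155 ± 2.68 CPM in control AAV, again without overlap after TMM scaling. Its log2 fold change was -0.09 (adjusted p = 0.260, edgeR). With Acsl3 at -0.15 and Acsl6 at 0.14, 3 of the 4 tested synthetases had negative values. None was called by edgeR, against 0.138% of all genes, and DESeq2 called Acsl4, against 6.14%. DESeq2 gave Acsl6 no adjusted p. The acyl-CoA binding proteins lay between -0.06 and 0.09 and the acyl-CoA thioesterases between -0.16 and 0.13, with 0 called by edgeR or DESeq2 in either group.

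At the membrane, the caveolar coat proteins Cav1 and Cav2 were lower in nANGPTL4 AAV without passing. Cav1 was at 2694 ± 114 CPM in nANGPTL4 AAV and 3055 ± 123 CPM in control AAV, a log2 fold change of -0.18 (standard error 0.05, adjusted p = 0.113, edgeR, and 0.0177 in DESeq2). Cav2 had a log2 fold change of -0.21 (adjusted p = 0.0876, edgeR, and 0.00554 in DESeq2), and their partner Cavin1 one of -0.04 (adjusted p = 0.671). Zdhhc5, an enzyme that attaches palmitate to CD36, was at 119 ± 6.05 CPM in nANGPTL4 AAV and 135 ± 4.06 CPM in control AAV, a log2 fold change of -0.18 (standard error 0.05, adjusted p = 0.0996, edgeR, and 0.0229 in DESeq2). Zdhhc4, which also modifies CD36, had one of 0.11 (edgeR adjusted p = 0.337). None of these was called by edgeR.

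For the triglyceride lipolysis genes, Lpl, the gene of lipoprotein lipase, was at 206, 138, 176 and 284 CPM in nANGPTL4 AAV libraries 1 to 4 and 207, 201, 225 and 128 CPM in control AAV libraries 1 to 4. Library 4 was the extreme of both groups, in opposite directions, and the log2 fold change of 0.08 (edgeR adjusted p = 0.877) was negative when either was left out. Gpihbp1, which anchors lipoprotein lipase on capillaries, had a log2 fold change of -0.10 (edgeR adjusted p = 0.405). Of the vessel signals, VEGF-B acts through FLT1 and NRP1 and raises FATP3 and FATP4 in mouse heart endothelium. Vegfb had a log2 fold change of -0.003 (adjusted p = 0.991, edgeR) and changed sign with the scaling, Nrp1 one of -0.02 (adjusted p = 0.914) that was 0.03 with library size only, and Flt1 one of -0.15 (SE 0.04, adjusted p = 0.114, edgeR, and 0.0127 in DESeq2). Notch1, a receptor whose signalling maintains fatty acid transport in mouse heart endothelium, had one of -0.27 (SE 0.06, adjusted p = 0.0674, edgeR, and 0.00168 in DESeq2). Aplnr, the apelin receptor, had one of -0.24 (adjusted p = 0.301, edgeR) and Hibadh, an enzyme of valine breakdown, one of -0.17 (adjusted p = 0.216, edgeR).

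Pparg, a nuclear receptor known to drive Cd36 and Fabp4 in adipocytes and macrophages, had the lowest fold change of the wider list. It was at 0.779, 0.632, 0.647 and 1.11 CPM in nANGPTL4 AAV libraries 1 to 4, against 1.71, 1.42, 1.26 and 1.54 CPM in control AAV libraries 1 to 4. The groups did not overlap, with a log2 fold change of -0.91 (standard error 0.20) that missed the threshold in edgeR (adjusted p = 0.0755) and passed it in DESeq2 (adjusted p = 0.00194).

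The levels of 9 pairs of genes were compared across the 8 libraries, and 0 passed after Benjamini-Hochberg adjustment over the pairs. Meox2 and Tcf15, the regulators, had a Pearson r of -0.102 (exact permutation p = 0.820) and a Spearman rho of -0.143 (exact permutation p = 0.752), with r = -0.623 without the 2 libraries farthest from the median of Meox2. Tcf15 with Fabp4 had r = 0.589 (exact permutation p = 0.122, adjusted 0.876) and rho = 0.571 (exact permutation p = 0.151, adjusted 0.453), and r was 0.839 without the 2 libraries farthest from the median of Tcf15. Fabp4 with Fabp5 had r = 0.417 (exact permutation p = 0.304, adjusted 0.876) and rho = 0.714 (exact permutation p = 0.0576, adjusted 0.374), with r = 0.283 without 2 libraries. Cd36 with Fabp4 had r = 0.507 (exact permutation p = 0.200, adjusted 0.876) and rho = 0.667 (exact permutation p = 0.0831, adjusted 0.374). For that pair r was 0.205 without 2 libraries and -0.05 once each group's mean was subtracted, so the pooled value rests on the difference between groups. The other 5 pairs, which set Meox2 and Tcf15 beside Cd36, Meox2 beside Fabp4, Fabp3 beside Fabp4 and Slc27a3 beside Slc27a4, had r between -0.256 and 0.259. Some of these moved with the setting: Fabp3 with Fabp4 had r = 0.812 once group means were subtracted, and without 2 libraries r was 0.635 for Meox2 with Fabp4 and 0.603 for Tcf15 with Cd36. Tcf15 with Cd36 was -0.424 once group means were subtracted.

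After each group's mean was subtracted, the genes most like Cd36 over the 8 libraries, among 9256 with a mean log2 CPM of at least 3, were Tmem183a (r = 0.977), Nup98 (0.972), Lrp12 (0.972), Mdm4 (0.970) and Hnrnpd (0.969). Those most like Fabp4 were Igbp1 (r = 0.972), Sept10 (0.957), Mecom (0.952), Slc25a40 (0.942) and Ptpdc1 (0.928). Each value is a description over the same 8 libraries and was not tested. These genes were picked as the highest among 9256, which alone brings high values.

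Markers of vessel types and of other cells were examined in the same fit. All 10 general capillary markers had negative log2 fold changes, with a median of -0.15, and their summed level was 17100 to 19000 CPM in nANGPTL4 AAV and 18900 to 21000 CPM in control AAV. Aerocyte markers, of the capillary cells specialised for gas exchange, were positive in 11 of 12, with a median of 0.06 and a summed level of 9380 to 11100 CPM in nANGPTL4 AAV and 9010 to 9930 CPM in control AAV. All 9 artery markers and all 8 vein markers were negative, with medians of -0.23 and -0.27. Artery markers summed to 3450 to 3590 CPM in nANGPTL4 AAV and 3830 to 4460 CPM in control AAV. Vein markers summed to 2580 to 2950 CPM in nANGPTL4 AAV and 3260 to 3510 CPM in control AAV. Lymphatic markers were negative in 5 of 6, with a median of -0.19. Of all 18874 tested genes 9014 were negative, and of the 9256 whose mean log2 CPM exceeded 3, 5787. In edgeR 1 artery marker was called, against 0.138% of all genes. An unadjusted edgeR p under 0.05 was held by 5 capillary, 1 aerocyte, 6 artery, 6 vein and 1 lymphatic markers, against 17.6% of genes. The part of these vessel types in the lower Cd36, Slc27a4 and Fabp4 was not tested. The capillary list shares Gpihbp1 and Aplnr with the wider list, and the aerocyte list shares Apln. The capillary list also shares Cxcl12 with the artery list and Tek with the pan-endothelial list, which shares Tie1 with the wider list. Counts over these lists are therefore not independent. In bulk samples fewer cells of a type and less RNA per cell cannot be told apart.

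Markers of other cells, some of which express CD36 or FABPs, were low beside the pan-endothelial markers. They were not all low beside the scarcer of the 10 genes. Fabp4 was at 11.5 CPM in nANGPTL4 AAV and 15.4 CPM in control AAV, below the myeloid marker Lyz2. Adipocyte markers summed to 0.811 to 1.5 CPM in nANGPTL4 AAV and 0.563 to 1.55 CPM in control AAV over 8 genes, with Adipoq at 0.0459 and 0.0171 CPM. Alveolar macrophage and myeloid markers summed to 31.4 to 51.1 CPM in nANGPTL4 AAV and 19.8 to 41.7 CPM in control AAV over 14 genes. Most of that sum was Lyz2, at 27.9 CPM in nANGPTL4 AAV and 22.9 CPM in control AAV, while the alveolar macrophage genes Marco, at 0.00985 and 0.0377 CPM, and Siglecf, at 0.00985 and 0.0326 CPM, were near 0. Platelet and erythroid markers summed to 74.8 to 87.4 CPM in nANGPTL4 AAV and 45.9 to 89.0 CPM in control AAV. All 9 that were tested were positive, against 9860 of the 18874 tested genes, with a median log2 fold change of 0.74. An unadjusted edgeR p under 0.05 was found in 5, against 17.6% of all genes, and 0 were called, against 0.138%. The platelet and erythroid sum was mostly Itga2b and Ppbp, while the globin gene Hbb-bs was at 3.78 CPM in nANGPTL4 AAV and 1.67 CPM in control AAV. Heart and skeletal muscle markers, of tissues rich in FABP3, summed to 14.6 to 17.6 CPM in nANGPTL4 AAV and 12.8 to 16.8 CPM in control AAV. Most of that sum was Myl4, at 10.4 CPM in nANGPTL4 AAV and 9.45 CPM in control AAV. Epithelial markers summed to 495 to 611 CPM in nANGPTL4 AAV and 355 to 517 CPM in control AAV. The largest was Hopx, at 276.4 and 251.5 CPM, and 11 of the 13 had positive values (median log2 fold change 0.23). The club cell gene Scgb3a2 was the 1 epithelial marker called (log2 fold change 1.30, edgeR adjusted p = 0.0369), at 0.804 CPM in nANGPTL4 AAV and 0.328 CPM in control AAV, and Scgb1a1 was at 31.7 and 13.4 CPM without being called. Fibroblast and mural markers summed to 60.7 to 145 CPM in nANGPTL4 AAV and 47.8 to 115 CPM in control AAV, and lymphocyte markers to 3.14 to 8.37 and 2.43 to 3.48 CPM, the 4 tested lymphocyte markers all being positive with a median of 0.62. Their part in the results was not tested.

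**Figure D4:**
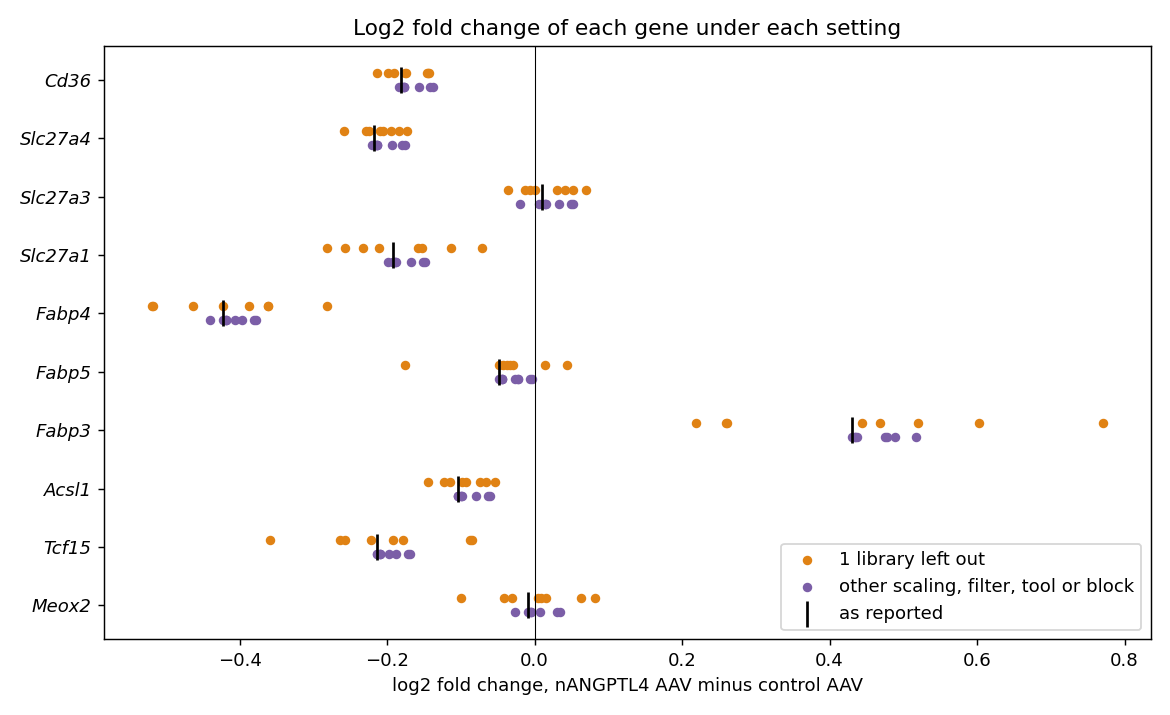
Log2 fold change of each of the 10 genes as reported (black bar), with each library left out in turn (orange) and under the other scalings, filters, tools and the replicate block (purple). Cd36, Slc27a4, Slc27a1, Fabp4, Acsl1 and Tcf15 stayed below 0 and Fabp3 above 0 in every fit shown, while Slc27a3, Fabp5 and Meox2 lay on both sides of 0.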

How the data were processed

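The authors deposited raw integer counts of reads for each gene, and mm10 is the build named in the submitters' processing notes. RNA came from a kit for small samples, with low-input cDNA, per the labels' protocols. The aligner, counter, strand setting and annotation are not given in the sources used here. Of 31610 identifiers, 31491 were matched to GENCODE M21, version number removed, and 0 per-sample columns were left unmapped. Counts were tested with edgeR 4.0.16 in R 4.3.3 (filterByExpr with a minimum count of 10, TMM scaling, quasi-likelihood F test, group as the only term), with p-values adjusted by Benjamini-Hochberg over 18874 genes and calls at an adjusted p under 0.05. Standard errors and 95% intervals came from the same fit. DESeq2 1.42.0, limma 3.58.1 (voom with quality weights), other scalings and filters, the replicate block and each library left out were alternatives. The fit was also run on counts simulated from its own dispersions, which checks the code and not the calls given here. Log2 CPM for correlations used a prior count of 2, and correlations used exact two-sided permutation tests over all 40320 pairings. The genes and lists were chosen with earlier results of these data known. Named were the 10 genes, 8 genes of the wider list with the smallest p, 8 fixed genes of that list, Angptl4, the 5 genes most like each of Cd36 and Fabp4, and genes sharing sequence with a member. Acsl3, Acsl5, Acsl6, Cavin1, Zdhhc4, Meox1, Fabp6, Fabp12, Slc27a2, Slc27a6 and the markers Scgb3a2, Scgb1a1, Hbb-bs, Itga2b, Ppbp, Lyz2, Myl4, Hopx, Adipoq, Marco and Siglecf fall outside this rule and were named after their values were seen. Apln, Tie1, Cxcl12 and Tek were named only as genes that lists share.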

Additional observations from a re-analysis of the deposited data

Results flagged for a closer look

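Aplnr, the apelin receptor, had 1 control AAV library far from the others of its group: control AAV library 3 was at 688 CPM, while the other control AAV libraries lay between 872 and 899 CPM. The gap to the nearest library was 0.868 of the group's range, above Dixon's 95% critical value for 4 samples. Of 52 groups examined 1 was flagged, and chance alone flags about 1 in 20.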

How the results depend on the processing

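Over all genes, 26 were called. Upper quartile scaling and library size only called 4 each, a filter at a CPM of 1 in 4 libraries called 1, DESeq2 956 and the robust edgeR fit 59, and leaving out a library gave 1 to 2. Among the 10 genes DESeq2 called 1, Slc27a4, and in the wider list 7, and the other alternatives called 0 in both. Of 168 values of the 10 genes under alternatives, 153 kept their direction and side of the threshold and 14 changed direction, all in Slc27a3, Fabp5 and Meox2. Over all 36 named genes, 552 of 609 values kept both and 47 changed direction.

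The replicate block called 6 genes and 0 of the 10. Same-numbered libraries deviated together with correlations of 0.138, 0.165, -0.254 and -0.308, so the numbers were not taken to pair the libraries. Under the block the log2 fold change was 0.00676 in Meox2 and 0.00114 in Vegfb.

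Log2 fold changes that changed direction were as follows, and the cause was not tested. With upper quartile scaling, Meox2 was 0.0298, Vegfb 0.0355, Nrp1 0.0231, Sept10 0.00591 and Slc25a40 0.0186. With library size only, Meox2 was 0.0338, Vegfb 0.0396, Nrp1 0.0265, Sept10 0.00928 and Slc25a40 0.0219. With the stricter filter, Vegfb was 0.0208, Nrp1 0.00754 and Slc25a40 0.00265. Vegfb was 0.000531 with RLE size factors, 0.00137 with no filter and 0.000455 with DESeq2, and Slc27a3 was -0.0193 with limma-voom. With a library left out, Fabp5 ranged from -0.175 to 0.0440, Slc27a3 from -0.0354 to 0.0695, Meox2 from -0.0997 to 0.0817, Lpl from -0.133 to 0.238, Vegfb from -0.0750 to 0.0601, Nrp1 from -0.0435 to 0.0242, Sept10 from -0.0844 to 0.0543, Slc25a40 from -0.0789 to 0.0378 and Ptpdc1 from -0.0146 to 0.0310. Among the correlations, Meox2 with Cd36 was 0.157 without the 2 libraries farthest from the median, Tcf15 with Cd36 was -0.424 with group means subtracted and -0.0992 with library size only, Cd36 with Fabp4 was -0.0468 with group means subtracted, and Slc27a3 with Slc27a4 was -0.00337 with library size only. Low counts limit Fabp3 and Meox2.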
